A study of Mus musculus with 96 samples.

Results

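The 39 genes described here carry glucose and lactate into cells, split glucose to pyruvate, exchange pyruvate with lactate, remove methylglyoxal, and feed and run the citrate cycle. They were chosen by name, and each matched 1 of the 38887 rows of a patch-seq table from the lateral superior olive (LSO) of the mouse, an auditory brainstem nucleus that compares sound levels between the ears. In patch-seq, a neuron is recorded with a patch pipette, its cytoplasm is aspirated and the RNA is sequenced. The mice were C57BL/6 J of both sexes at postnatal days 10 to 12, no treatment or altered allele is named, and neurons were grouped by the firing pattern in their labels. The groups were 41 Onset and 11 Sustained neurons, together 52 principal LSO neurons (pLSOs), and 28 Delayed neurons, the lateral olivocochlear neurons (LOCs), which project to the cochlea. A further 8 negative controls came from pipettes that only touched the slice. The deposit held 96 libraries, of which 8 (6 neurons and 2 controls) were left out, and the whole set is compared where it changed a result. The labels name no animal, so each group counted as 1 sample, no test was made, and every range, SD or interval describes these neurons and not animals. The values hold RNA drawn from the soma into the pipette, and a class here is set by the firing pattern label alone. In the study, pLSOs and LOCs came from clustering of these same RNA profiles, and firing patterns were then described within each cluster. The classes are therefore not independent of the RNA values compared here.

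Glycolysis turns glucose into pyruvate in the cytosol and yields a little ATP. Pyruvate then enters mitochondria, where the pyruvate dehydrogenase complex makes acetyl-CoA for the citrate cycle, or it is reduced to lactate by lactate dehydrogenase, a tetramer of A and B chains encoded by Ldha and Ldhb. Tetramers rich in B chains are typical of tissues that take up lactate and oxidise it. The auditory brainstem is among the brain regions with the highest use of glucose.

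The neurons held between 188189 and 3231996 recovered reads in genes, with a median of 882773 in pLSOs and 723911 in LOCs, and between 1175 and 6276 genes at 1 TPM (transcripts per 1000000) or more. The negative controls held 3460 to 145723 reads and 285 to 1271 genes. Of 5 genes typical of pLSOs (Spp1, Kcnh7, Tenm2, Maf and Lpgat1), each pLSO held 2 to 5 and each LOC 0 to 2, and of 5 genes typical of LOCs (Calca, Ucn, Isl1, Chat and Nxph1), each LOC held 1 to 5 and each pLSO 0 to 2. The study named several of these genes from the same neurons, so they are not an independent check of the labels. The deposited TPM are whole numbers made with gene lengths that were not those of the genes themselves, and 1 read stood for between 0.0366 TPM (Eno1) and 51.8 TPM (Dlat) in a typical neuron. Ratios within 1 gene are free of this error except through the library totals, whereas levels of different genes are compared here only per length, as reads per base of a gene's own exons scaled to a sum of 1000000 in each library.

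Between pLSOs and LOCs, 7 of the 39 genes had a mean TPM at least 2-fold higher in pLSOs (Ldhb, Pfkp, Pfkm, Sucla2, Ogdh, Slc2a3 and Pdha1) and 2 at least 2-fold higher in LOCs (Hagh and Ldha). A call also needed the gene at 1 TPM or more in over 3 neurons of both classes. Over the 10319 genes with 1 TPM or more in at least 5% of neurons, the same rule gave 9.65% higher in pLSOs and 12.1% higher in LOCs, against 17.9% and 5.13% of the 39 genes. The 39 genes were held by more neurons than most genes (a median of 57.5% against 17.5% of neurons) and so met the rule on numbers more often. Among genes with a ratio, 20.6% of the members (7 of 34) and 16.8% of all genes (996 of 5946) were past 2-fold in pLSOs, and these shares were close. The ratio was above 1 in 28 of these 34 members (82.4%) and in 46.6% of all genes with a ratio, and the median log2 ratio was 0.34 in the members and -0.09 in all genes. Rescaling every value to own gene length turned the balance of all 2-fold calls, from 44.4% to 57.3% of them higher in pLSOs (12.4% of genes higher in pLSOs and 9.19% in LOCs), and gave 7 members in pLSOs and 2 in LOCs. The remaining 25 genes with a ratio lay between 0.589 and 1.65, and 5 had too few neurons for a ratio (Slc2a1, Slc16a1, Slc16a7, Hk2 and Pcx). The other measure was a difference of at least 1 in mean log2(TPM + 1), which counts the neurons without the gene more heavily and understates the change of low genes. By it, 13 genes were higher in pLSOs and 2 in LOCs, against 5.24% and 3.89% of all genes tested. This measure also needed over 3 neurons of both classes, which the 39 genes met more often. Among genes with a ratio it was 13 of 34 members and 541 of 5946 genes in pLSOs, and 2 of 34 and 401 of 5946 in LOCs.

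**Figure D1:**
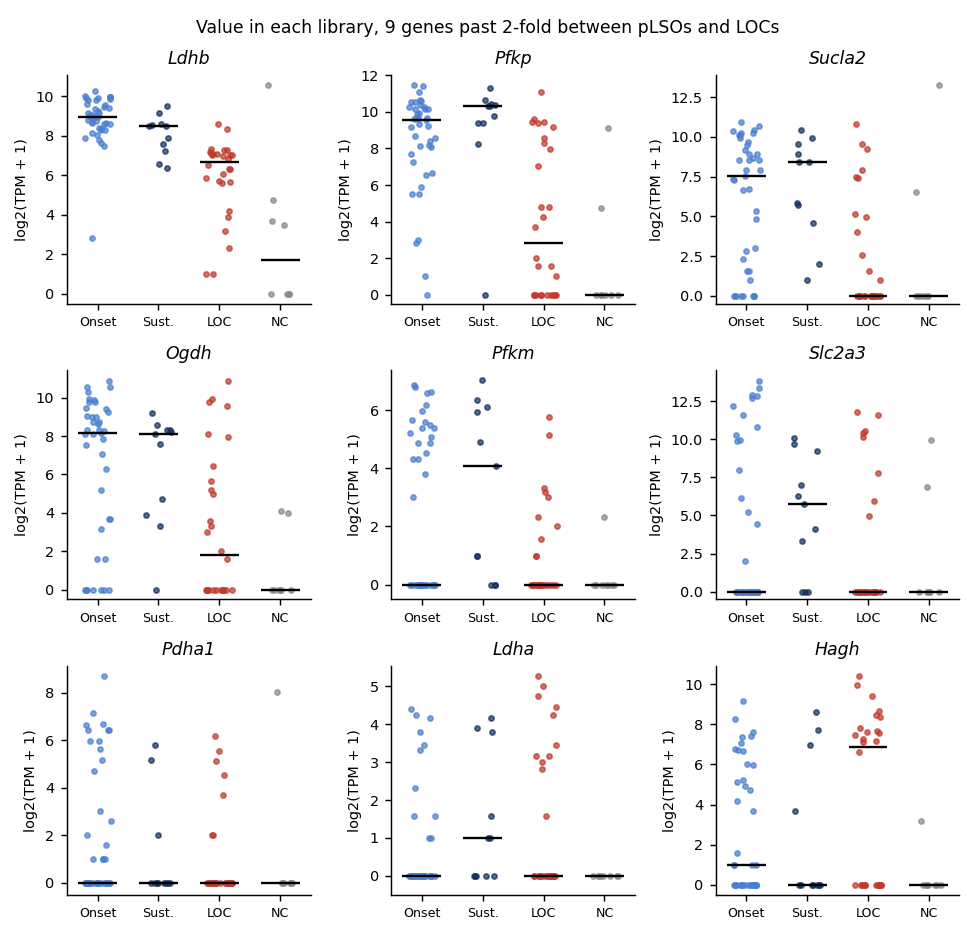
Values of the 9 genes past 2-fold between pLSOs and LOCs, as log2(TPM + 1) in each library of the 41 Onset, 11 Sustained (Sust.) and 28 LOC neurons and the 8 negative controls (NC). Each point is 1 library and the bar is the group median. Ldhb was present in all neurons with the LOCs below most pLSOs, whereas each of the other 8 genes had neurons at 0 in both classes.

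Ldhb, encoding the B chain of lactate dehydrogenase, separated the classes most clearly. It lies on chromosome 6 (142490249 to 142507957, minus strand, GRCm38) and was the only member held by all 80 neurons. Its TPM ran from 6 over a median of 432 to 1203 in pLSOs and from 1 over 101 to 381 in LOCs. No LOC exceeded the pLSO median, 32 of the 52 pLSOs exceeded the highest LOC, and in 94.2% of all pairs of a pLSO and an LOC the pLSO was higher. The mean was 511 TPM ± 290 (SD, n = 52) in pLSOs and 104 TPM ± 87.8 (SD, n = 28) in LOCs, a ratio of 4.94 that stayed between 4.76 and 5.48 when any single neuron was left out. In the negative controls, 4 of 8 held Ldhb, 1 of them at 1511 TPM, and their median was 5 TPM.

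Ldha, encoding the A chain, was held by a minority of neurons and went the other way. It was held by 17 of 52 pLSOs (32.7%, exact 95% interval 20.3 to 47.1%) and 11 of 28 LOCs (39.3%, 21.5 to 59.4%), and the highest pLSO had 20 TPM and the highest LOC 38 TPM. The class means were 2.79 TPM (pLSOs) and 6.25 TPM (LOCs), 2.24-fold higher in LOCs (1.82 to 2.55 with any 1 neuron left out). No negative control held Ldha. Per length, Ldha made up 1.27% of the summed level of both chains in pLSOs and 14.0% in LOCs, and it was the higher of the 2 chains in 2 LOCs and in no pLSO. Exact intervals here and below cover counting error only.

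The sequences before 2 of these genes are shown because Ldhb and Pfkp were past 2-fold in pLSOs under each of the 9 settings tried. Sucla2 was as well, but 154 of the 250 bases of its window are exonic and it is not shown. Both are the 250 bases before the start, from RefSeq on GRCm38.p6, read 5′ to 3′ on the strand of the gene. Capitals mark the GC box (GGGCGG) and the CCAAT box on either strand. The window of Ldhb, chr6:142507958-142508207 (minus strand), overlaps no annotated gene, and that of Pfkp, chr13:6648772-6649021 (minus strand), reaches 6 bases into an annotated exon of Pfkp.
Ldhb: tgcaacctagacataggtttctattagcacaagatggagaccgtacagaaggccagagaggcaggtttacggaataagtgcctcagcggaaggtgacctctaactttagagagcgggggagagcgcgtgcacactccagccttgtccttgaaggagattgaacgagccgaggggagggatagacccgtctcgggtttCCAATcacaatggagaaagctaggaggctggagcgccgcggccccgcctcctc
Pfkp: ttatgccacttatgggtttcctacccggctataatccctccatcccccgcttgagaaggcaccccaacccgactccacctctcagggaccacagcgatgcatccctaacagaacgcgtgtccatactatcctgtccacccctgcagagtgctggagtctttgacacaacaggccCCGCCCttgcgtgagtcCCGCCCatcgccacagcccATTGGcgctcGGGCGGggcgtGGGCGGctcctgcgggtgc
The Ldhb window held no GC box and 1 CCAAT box, and the Pfkp window 4 GC boxes and 1 CCAAT box. Promoters were found for 36 of the 39 genes. In windows of this length, 24 of these 36 genes (66.7%) held a GC box, against 35.4% of all 27025 genes in the table, and 18 (50.0%) held a CCAAT box, against 37.5%. ACGTG, the core of the element bound by hypoxia-inducible factors, stood in 14 of the 36 (38.9%) and in 18.5% of all genes, and neither printed window held it. A gene with several starts counted if any of its windows held the letters, among the members and among all genes. The 27025 genes are those with a promoter and were not limited to genes detected in these neurons. A match of letters is not a measured site.

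Glucose and lactate transporters were sparse. Slc2a3, the neuronal glucose transporter GLUT3, was held by 24 of 52 pLSOs (46.2%, 32.2 to 60.5%) and 8 of 28 LOCs (28.6%, 13.2 to 48.7%), and its median was 0 TPM in both classes. The highest pLSO had 14698 TPM and the highest LOC 3563 TPM. The ratio of means was 3.10 (2.42 to 4.46 with 1 neuron left out), and 1 read of this gene stood for 17.3 TPM in a typical neuron. Of the negative controls, 2 of 8 held it, at up to 992 TPM. Slc2a3 lies on chromosome 6 (122727809 to 122801640, minus strand). Slc2a1, the glucose transporter GLUT1 of capillaries and glia, was held by 3 pLSOs and 3 LOCs and by no negative control. Slc16a1, the lactate transporter MCT1, was held by 10 pLSOs (19.2%) and 1 LOC (3.57%), with highest values of 50 and 12 TPM. Slc16a7, the high-affinity neuronal transporter MCT2, reached 1 TPM in a single pLSO and in 0 of 28 LOCs, which by the rule of 3 neurons over the total allows a share of up to 10.7% of LOCs with a read, not of LOCs that express the gene. In a typical neuron 1 read of Slc16a7 stood for 2.36 TPM. It was the only member that missed the filter of 5% of neurons.

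In the upper part of glycolysis, 2 of the 3 genes of phosphofructokinase, the committed and regulated step, were past 2-fold. Pfkp, the platelet-type isoform, was held by 50 of 52 pLSOs (96.2%, 86.8 to 99.5%) and 18 of 28 LOCs (64.3%, 44.1 to 81.4%). Its TPM ran from 0 over a median of 792.5 to 2849 in pLSOs and from 0 over 7.5 to 2169 in LOCs, so the ranges overlapped although only 1 LOC exceeded the pLSO median. The means of 852 TPM and 242 TPM gave a ratio of 3.52 (3.36 to 4.99). Of the negative controls, 2 of 8 held Pfkp, at up to 563 TPM. Pfkp lies on chromosome 13 (6579768 to 6648777, minus strand). Pfkm, the muscle-type isoform, was held by 28 pLSOs (53.8%, 39.5 to 67.8%) and 10 LOCs (35.7%, 18.6 to 55.9%), with means of 26.2 and 4.36 TPM. Its ratio of 6.02 was the largest of the 34 ratios and rose to 9.47 without the highest neuron of each class. Pfkl, the liver-type isoform, was held by 15 pLSOs and 5 LOCs, and 1 LOC with 2730 TPM set its ratio of 0.603, which moved between 0.389 and 27.1 with 1 neuron left out. Per length, Pfkm made up 62.8% of the 3 genes in pLSOs and 43.2% in LOCs, and Pfkp 32.8% and 36.4%. By neuron, Pfkp was the highest of the 3 in 25 of the 51 pLSOs and 12 of the 22 LOCs that held one. Pfkm was the highest in 23 pLSOs and 8 LOCs. Read from the deposited TPM, Pfkp would make up 90.8% of the 3 in pLSOs, because those values were not made with the genes' own lengths.

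The other genes of the upper part lay closer together. Hk1, the main hexokinase of brain, was held by 48.1% of pLSOs and 39.3% of LOCs with a ratio of 1.53, and Hk2 by 3 neurons of each class. Gpi1, which converts glucose 6-phosphate to fructose 6-phosphate, was held by 38 of 52 pLSOs and 25 of 28 LOCs. Medians were 24 TPM (pLSOs) and 39.5 TPM (LOCs), its ratio was 0.589, and on the log2 scale it was lower in pLSOs (fell by 1.31). Aldoa, which splits fructose 1,6-bisphosphate, was held by all pLSOs and 26 of 28 LOCs with medians of 167 and 124 TPM, highest values of 370 and 347 TPM and a ratio of 1.11 (1.07 to 1.17). Tpi1, triosephosphate isomerase, had medians of 473 and 298.5 TPM and a ratio of 1.65 (1.59 to 1.80), the highest below 2-fold.

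**Figure D2:**
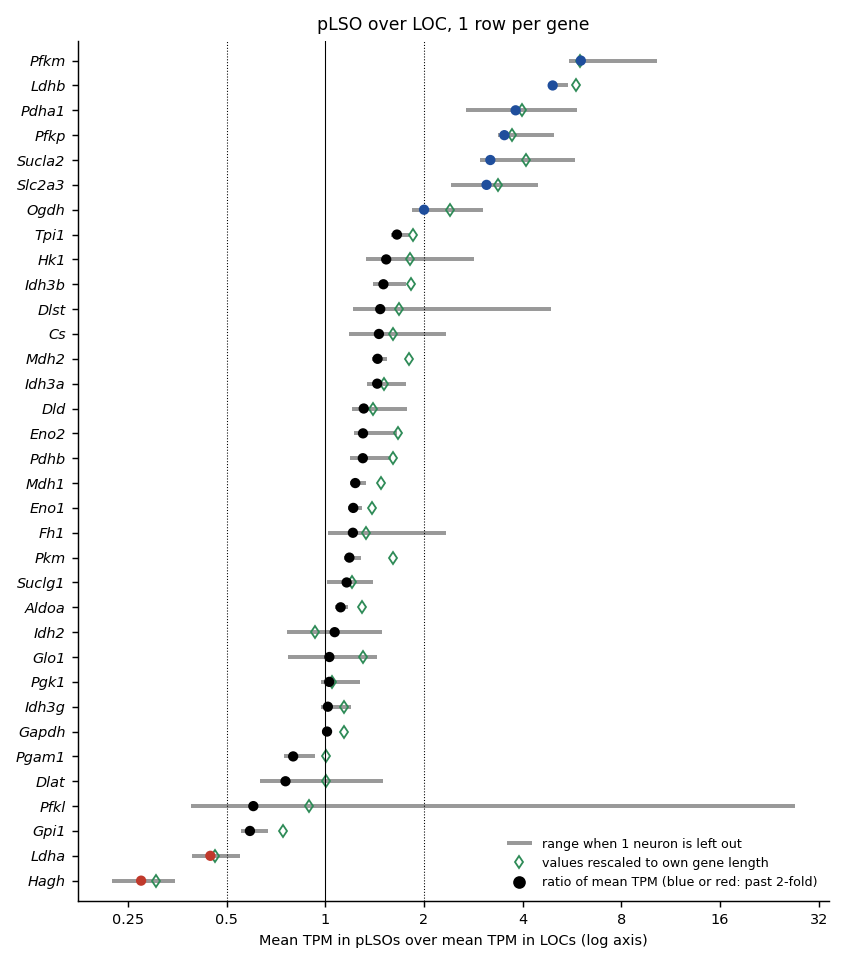
Ratio of mean TPM, pLSOs over LOCs, for the 34 genes with a ratio, on a log axis. Dots are the ratios (blue and red past 2-fold), grey bars their range when any 1 neuron is left out, and green diamonds the ratios after correction for own gene length. Most genes lay between 1 and 2, Pfkm was highest at 6.02, Hagh lowest at 0.274, and the wide bar of Pfkl rested on 1 LOC.

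None of the 6 genes of lower glycolysis was past 2-fold. Gapdh, which makes 1,3-bisphosphoglycerate, ran from 0 to 105 TPM in pLSOs (median 31.5) and from 0 to 64 TPM in LOCs (median 38.5), with a ratio of 1.01 (0.974 to 1.04). Pgk1, which yields the first ATP of glycolysis, had a ratio of 1.03, Pgam1, a mutase, 0.798, and Pkm, pyruvate kinase, 1.18. Of the 2 enolases, Eno1 had a ratio of 1.22 and Eno2, the neuronal form, 1.30. Eno2 was held by 43 pLSOs and 20 LOCs with medians of 1246 and 572.5 TPM, and on the log2 scale it was higher in pLSOs by 1.46. Per length, Eno1 exceeded Eno2 in both classes (1108 against 200 per 1000000 in pLSOs, 798 against 120 in LOCs), and it was the highest enolase in 43 of 51 pLSOs and 24 of 26 LOCs that held one. Gapdh and several other glycolytic genes have processed pseudogenes in the mouse genome. Per the study's methods only primary alignments entered the counts, so a read that fits a gene and its copy equally well was given to 1 of them, and these levels carry that uncertainty.

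The glyoxalase genes detoxify methylglyoxal, a by-product of glycolysis. Hagh, the second enzyme of this path, was held by similar shares of both classes, 26 of 52 pLSOs (50.0%, 35.8 to 64.2%) and 15 of 28 LOCs (53.6%, 33.9 to 72.5%). The values differed more than the shares, with a median of 0.5 TPM and a highest of 572 TPM among pLSOs, against 117 TPM and 1359 TPM among LOCs. The means were 55.5 and 202 TPM, 3.64-fold higher in LOCs (2.87 to 4.46), and 3 LOCs exceeded every pLSO. Hagh was held by 1 of 8 negative controls, at 8 TPM. Glo1, the first enzyme, was held by 34.6% of pLSOs and 35.7% of LOCs with a ratio of 1.03.

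**Figure D3:**
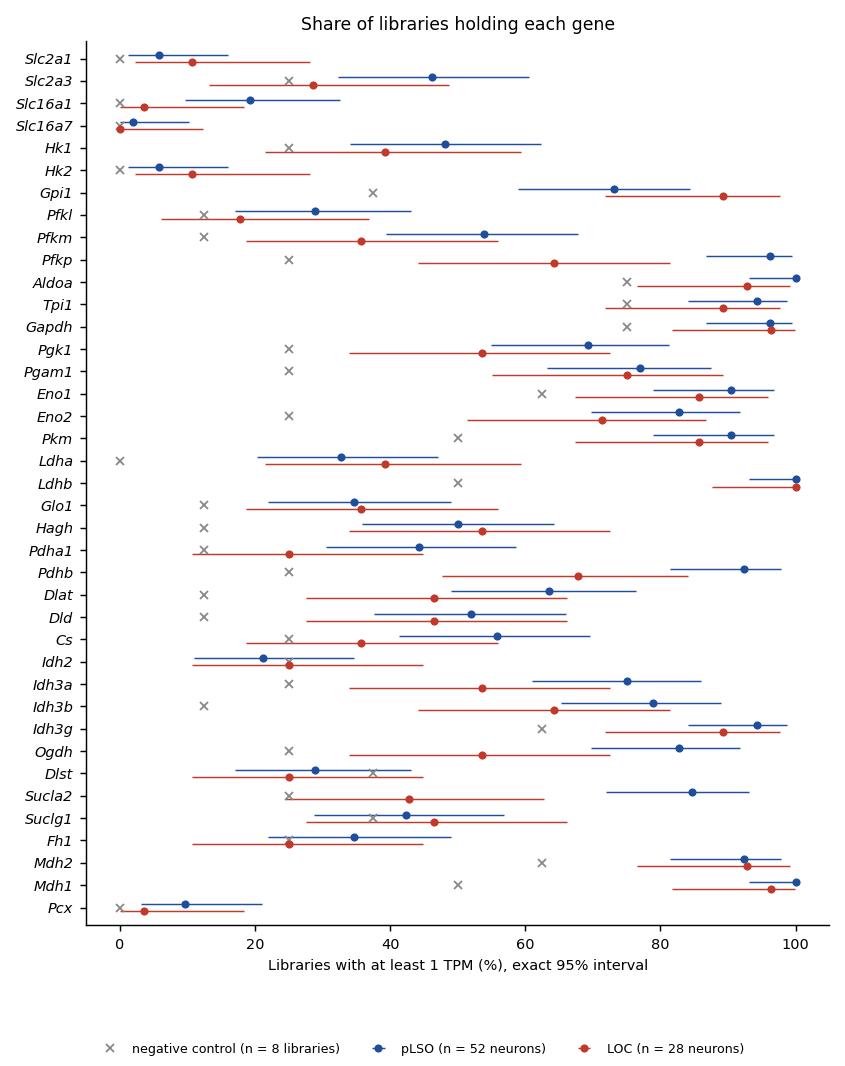
Share of libraries with at least 1 TPM of each of the 39 genes in pLSOs (blue, n = 52), LOCs (red, n = 28) and negative controls (crosses, n = 8), with exact 95% intervals for the neurons. Of the 39 genes, 28 were held by a larger share of pLSOs and 10 by a larger share of LOCs. No such count over all genes is given, and pLSOs had more detected genes by median (2560.5 against 2394). Pfkp, Sucla2 and Ogdh lay far to the right in pLSOs at 96.2%, 84.6% and 82.7%.

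The genes of the pyruvate dehydrogenase complex did not move together. Pdha1, its E1 alpha subunit, was held by 23 of 52 pLSOs (44.2%, 30.5 to 58.7%) and 7 of 28 LOCs (25.0%, 10.7 to 44.9%), with means of 26.0 and 6.82 TPM and a ratio of 3.81. With 1 neuron left out the ratio moved between 2.69 and 5.84, and the log2 difference was 0.92, under the threshold of 1. A single negative control held Pdha1, at 261 TPM. Pdhb, the E1 beta subunit, was held by 92.3% and 67.9% with a ratio of 1.30. Dlat, the E2 core, was held by 63.5% and 46.4%, and its ratio of 0.756 turned to 1.26 without the highest neuron of each class, since 1 LOC had 58275 TPM. Dld, the E3 subunit, had a ratio of 1.31.

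All 11 citrate cycle genes had a higher mean TPM in pLSOs than in LOCs, against 46.6% of all genes with a ratio. Per length Idh2 was lower in pLSOs (115 against 124). Per length, the median log2 ratio was 0.28 toward pLSOs over the 9678 genes with a mean above 0 in both classes. That is a wider set than the 5946 genes with a ratio. Idh3g (575 against 505) and Suclg1 (140 against 116) were higher by less than that median. Of the 11 genes, 2 were past 2-fold. Sucla2, the ATP-forming subunit of succinate-CoA ligase, was held by 44 of 52 pLSOs (84.6%, 71.9 to 93.1%) and 12 of 28 LOCs (42.9%, 24.5 to 62.8%). Its TPM ran from 0 over a median of 211.5 to 1985 in pLSOs and from 0 over 0 to 1752 in LOCs. The means of 426 and 134 TPM gave a ratio of 3.19 (2.96 to 5.77), which was 5.36 without the highest neuron of each class. The partner subunit Suclg1 was held by 42.3% of pLSOs and 46.4% of LOCs with a ratio of 1.16. Of the negative controls, 2 of 8 held Sucla2, 1 of them at 9775 TPM, above every neuron. Ogdh, the E1 subunit of the oxoglutarate dehydrogenase complex, was held by 43 pLSOs (82.7%, 69.7 to 91.8%) and 15 LOCs (53.6%, 33.9 to 72.5%). Its medians were 284.5 and 2.5 TPM. Its ratio of means stood at the threshold (2.00, 1.84 to 3.02) and fell below it when all 96 libraries were grouped as labelled. Dlst, the E2 subunit of that complex, was held by 28.8% and 25.0% with a ratio of 1.47.

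The other citrate cycle genes had ratios between 1.02 and 1.50. Cs, citrate synthase, was held by 29 pLSOs and 10 LOCs with a ratio of 1.46. The 3 subunits of the NAD-dependent isocitrate dehydrogenase gave 1.44 (Idh3a), 1.50 (Idh3b) and 1.02 (Idh3g). Idh3g was held by 94.2% of pLSOs and 89.3% of LOCs, with medians of 4631 and 2938 TPM that rest on 17.3 TPM per read. Idh2, the NADP-dependent mitochondrial form, was held by 11 pLSOs and 7 LOCs with a ratio of 1.07. Fh1, fumarase, had 1.21 and Mdh2, mitochondrial malate dehydrogenase, 1.44. Mdh1, the cytosolic malate dehydrogenase of the malate-aspartate shuttle, was held by all 52 pLSOs and 27 of 28 LOCs, with medians of 1947.5 and 1481.5 TPM, highest values of 6556 and 5311 TPM and a ratio of 1.23 (1.19 to 1.33). Pcx, pyruvate carboxylase, an enzyme known from astrocytes in brain, was held by 5 pLSOs and 1 LOC.

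These shares were also taken at an equal number of reads, which does not equalise the number of genes detected. With the 51 pLSOs and 28 LOCs of at least 200000 reads thinned to that number, the expected share with a read was 93.6% of pLSOs and 52.2% of LOCs for Pfkp, 75.5% and 35.3% for Sucla2, and 79.2% and 45.3% for Ogdh. Pfkp and Sucla2 were held together by 43 of 52 pLSOs and 9 of 28 LOCs.

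Per length, Ldhb stood at 7476 per 1000000 in pLSOs and 1285 per 1000000 in LOCs, and it was 8th of all genes by its mean over the 80 neurons. Mdh1 (1687 and 1143), Aldoa (1385 and 1073) and Eno1 (1108 and 798) followed. By the mean over the 80 neurons, Slc2a1 (3.57 and 21.0) and Hk2 (0.601 and 3.70) stood at the lower end. Slc2a3 had 41.1 in pLSOs and 12.2 in LOCs, so its mean was below that of Slc2a1 in LOCs. Of the 10 LOCs that held either of these transporters, Slc2a3 was the higher in 7. The 39 genes together made up a median of 1.85% of the summed level in pLSOs (range 0.333 to 4.40%) and 0.938% in LOCs (0.340 to 1.92%). The lactate dehydrogenase pair accounted for the largest part of that gap, with medians of 0.624% in pLSOs and 0.142% in LOCs. The citrate cycle genes had 0.285% and 0.194%, and the ranges of the classes overlapped for each of these sums. In the 8 negative controls the 39 genes together had a median of 0.932% (0.0822 to 3.15%), close to that of the LOCs. The controls had medians of 0.00431% for the lactate dehydrogenase pair and 0.0222% for the citrate cycle genes.

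**Figure D4:**
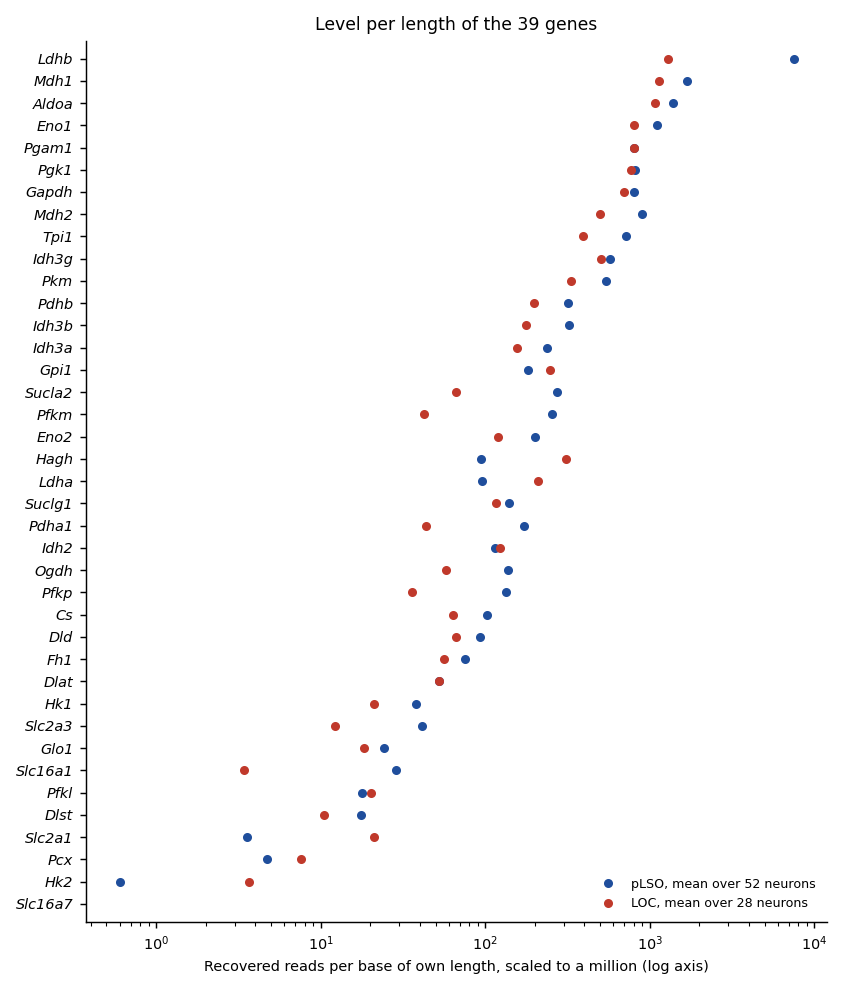
Mean level per length of the 39 genes in pLSOs (blue, 52 neurons) and LOCs (red, 28 neurons), as recovered reads per base of own exon length scaled to 1000000, on a log axis, ordered by the mean over all neurons. Ldhb was highest at 7476 per 1000000 in pLSOs, with the widest gap among the abundant genes, and Slc16a7 lay below the axis.

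A pLSO held 14 to 33 of the 39 genes (median 24) and an LOC 9 to 30 (median 18.5). The number followed the number of all genes detected in the neuron (Spearman's rho 0.823 over 52 pLSOs and 0.871 over 28 LOCs, with detected genes a shared source), and the medians were 24 and 21.5 among neurons with at least 2000 detected genes. The negative controls held 2 to 18 of the 39 genes (median 12.5). In 8 of the 39 genes the mean of the controls exceeded that of the neurons (Gapdh, Pgam1, Glo1, Pdha1, Pdhb, Idh2, Sucla2 and Suclg1), with highest controls of 35874 TPM for Pgam1 and 16570 TPM for Glo1. By share, 37 of the 39 genes were held by more of the neurons than of the controls. The controls had a median of 34948 reads against 808875 in the neurons, and no such count over all genes is given.

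**Figure D5:**
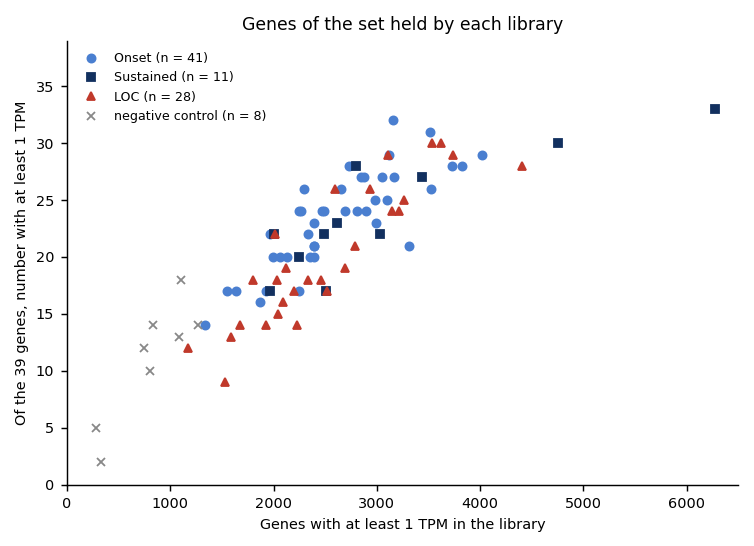
Number of the 39 genes at 1 TPM or more in each library against the number of all genes at 1 TPM or more, for 41 Onset, 11 Sustained, 28 LOC and 8 negative control libraries. The points rise together in each class, and the controls lie at the lower left with at most 18 of the 39 genes.

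Material of other cells was measured beside these genes, with markers summed per length (per 1000000). The 5 oligodendrocyte markers (Mbp, Mobp, Mog, Mag and Cnp) had a median sum of 590 in pLSOs (0 to 41056), 1010 in LOCs (6.62 to 25330) and 4124 in negative controls (186 to 31135), and each of these groups held a median of 3 of the 5. Of the 5, Mag was past 2-fold in LOCs and none in pLSOs. The 8 astrocyte markers (Gfap, Aqp4, Aldoc, Slc1a3, Slc1a2, Gja1, Aldh1l1 and S100b) had a median sum of 245 in pLSOs (0 to 2866) and 433 in LOCs (0 to 2791). Slc1a3, Slc1a2 and S100b were past 2-fold in LOCs and Aqp4 in pLSOs, while Gja1 and Aldh1l1 were held by no LOC and by 2 and 4 pLSOs. The 5 microglial markers (C1qa, C1qb, Csf1r, Cx3cr1 and P2ry12) had a median sum of 2.17 in pLSOs (0 to 9893) and 90.7 in LOCs (0 to 8898). P2ry12 was past 2-fold in LOCs and Csf1r in pLSOs. Of the 5 endothelial markers, the median number held was 0 in both classes, Pecam1 was held by 10 pLSOs and 5 LOCs and was past 2-fold in LOCs, and Ly6c1 and Abcb1a were at 0 in all neurons and controls. The part of such material in the class differences was not tested.

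The classes also differ in the size of the neurons, with a median capacitance of 0.07 nF over 52 pLSOs and 0.037 nF over the 27 LOCs that have one. Within the classes, the rank correlation of capacitance with Ldhb was -0.133 in pLSOs and 0.0632 in LOCs. Over 50 such correlations of 5 recorded properties with Ldhb, Pfkp, Aldoa, Mdh1 and the sum per length, within pLSOs or LOCs, rho lay between -0.383 and 0.451. Within the 41 Onset neurons alone it lay between -0.221 and 0.35, and within the 11 Sustained neurons between -0.572 and 0.7.

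Among pLSOs, 4 of the 39 genes were at least 2-fold higher by mean in Onset neurons (Slc2a3, Pgam1, Dlat and Fh1) and 1 in Sustained neurons (Idh2), against 4.71% and 7.6% of all genes tested, which is 10.3% and 2.56% of the 39. Here too the 39 genes met the rule on numbers more often. Among genes with a ratio, 4 of 29 members and 486 of 3553 genes were past 2-fold in Onset neurons, and these shares were close. In Sustained neurons it was 1 of 29 members and 784 of 3553 genes. By mean log2(TPM + 1), 4 were past 1 in each direction, against 2.17% of all genes for Onset and 7.86% for Sustained neurons. Among genes with a ratio, that was 4 of 29 members in each direction, against 224 of 3553 genes for Onset and 811 of 3553 for Sustained neurons. After rescaling to own length, 5 were past 2-fold in Onset and 1 in Sustained neurons, against 4.88% and 7.34%. The ratio was above 1 in 18 of 29 members with a ratio (62.1%) and in 43.6% of all genes with one. Pgam1 ran from 0 over a median of 2482 to 10933 TPM in 41 Onset neurons and from 0 over 754 to 3248 TPM in 11 Sustained neurons, a ratio of 2.51 (2.28 to 3.04). Dlat had medians of 311 and 40 TPM and a ratio of 2.76 (2.27 to 4.01). Slc2a3 changed direction with the measure: its mean was 5.79-fold higher in Onset neurons, 9 of which exceeded the highest Sustained neuron, but it was held by 16 of 41 Onset and 8 of 11 Sustained neurons, and on the log2 scale it was lower in Onset neurons (fell by 1.23). Grouping all 96 libraries as labelled took the mean ratio of Slc2a3 below 2-fold. The ratio of Fh1, 2.90, rose to 34.5 when 1 Sustained neuron was left out. Idh2 was held by 7 of 41 Onset and 4 of 11 Sustained neurons, with a mean 6.55-fold higher in Sustained neurons (3.84 to 9.64). Cs was held by 26 of 41 Onset (63.4%, 46.9 to 77.9%) and 3 of 11 Sustained neurons (27.3%, 6.02 to 61.0%), too few for a ratio. Ldhb did not pass 2-fold between the patterns: its medians were 496 and 359 TPM and its ratio 1.77 (1.64 to 2.02). Beside these values, the microglial markers had a median sum per length of 0 in Onset and 379 in Sustained neurons. The astrocyte markers had 191 and 462, and Aldoc alone, the aldolase among them, had medians of 44.6 and 304. The oligodendrocyte markers had 605 and 492.5. The part of such material was not tested.

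Of 50 further genes of the same pathways, 5 were past 2-fold in pLSOs (Adpgk, Pfkfb3, Pdk3, Ldhd and Sdhd) and 5 in LOCs (Pfkfb2, Pdp1, Acly, Tkt and Gys1), and 16 of the 27 with a ratio were above 1. Each count is 10% of the 50, near the 9.65% and 12.1% of all genes. By both measures only Sdhd, which anchors succinate dehydrogenase in the membrane, was higher in pLSOs (39 of 52 pLSOs, 16 of 28 LOCs, ratio 2.52) and only Acly, which makes cytosolic acetyl-CoA from citrate, was higher in LOCs. Acly was held by 25 of 52 pLSOs and 25 of 28 LOCs, with means of 115 and 989 TPM, 8.57-fold higher in LOCs. Sdhb, the iron-sulfur subunit, was held by 47 pLSOs and 17 LOCs with a ratio of 1.94. Mpc1, part of the mitochondrial pyruvate carrier, was held by 48 and 20 with a ratio of 1.63. Pygm, the muscle glycogen phosphorylase, was held by 19 pLSOs and 2 LOCs. Pgam2, Pdk4 and Rpia were at 0 in all neurons. Between Onset and Sustained neurons, none of the 50 was past 2-fold in Onset and 4 were in Sustained neurons (Adpgk, Pfkfb2, Pdhx and Pygb), against 4.71% and 7.6% of all genes.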

How the data were processed

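The contents of single neurons were collected in the recording pipette and amplified by a variant of Smart-seq2. Per the submitters' processing notes, the authors used Trim Galore 0.4.2, STAR, Picard 1.115, FastQC and featureCounts on mm10. The deposited score values are TPM that the authors rounded to whole numbers. Names, positions and exon-union lengths were taken from Gencode vM21 (GRCm38), which holds 37570 of the 38887 genes.

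The length behind each row and the value of 1 read in each library were recovered from the steps of low values in the first 3000 rows. Recovered reads were whole within 0.25 for 99.97% of 32060 values. From row 1701 to row 3000, the fitted lengths matched the ascending lengths of all genes less 80 bases within 1 base in 1300 of 1300 rows. Values per length are recovered reads over own length less 80 bases, for genes of at least 200 bases, scaled to 1000000.

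The members and lists were chosen with earlier results of these data known, and so were the 8 libraries left out. Genes were named by rule: transporters, lactate dehydrogenases, members past 2-fold and past 1 on the log2 scale in the same direction, and the 5 members in most neurons, while other genes were named for their place in the pathway, Pdha1 and further genes after their values were seen. At least 1 TPM counted as held. Some items are not reported here. Samples were grouped by their firing pattern label. A class is 1 sample, so no test was made. Scripts used Python 3.11.15 with matplotlib 3.10.9, SciPy 1.17.1, NumPy 2.4.6 and pandas 2.3.3, and were tested on simulated data. Alternatives were other groupings, scalings, pseudocounts, depths and filters.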

Additional observations from a re-analysis of the deposited data

Results flagged for a closer look

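In the negative controls, a single library lay apart from the other 7 for 6 genes: Ldhb at 1511 TPM, Dlat at 7656 TPM, Idh2 at 3786 TPM, Pdha1 at 261 TPM, Hagh at 8 TPM and Pfkm at 4 TPM. The criterion was Dixon's gap ratio at its 95% critical value, which is set to flag about 1 in 20 groups of normally distributed values. The rate for values with many zeros was not computed. Of the 8 controls, 4 held Ldhb, 2 held Idh2 and 1 held each of the others.

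Of the 8 libraries left out, 5 held more of the 39 genes than any negative control kept (18): 23 and 21 in 2 libraries labelled Onset and Sustained, 19 and 21 in 2 labelled LOC, and 24 in 1 labelled as a negative control. The last held 3104 detected genes, more than 1271 in any control kept, and 1037 TPM of Pfkp. Of the 2 left-out LOCs, 1 had 773 TPM of Pfkp and 846 TPM of Hagh and no Ldhb, and the other had 134 TPM of Ldhb and neither of the other genes.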

How the results depend on the processing

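No paired analysis was possible because the labels give no replicate numbers or animals that groups share. Ldhb, Pfkp and Sucla2 (pLSOs) and Hagh (LOCs) were past 2-fold in 9 of 9 settings, Ogdh, Pfkm and Slc2a3 in 8, and Pdha1 and Ldha in 7. With 2-fold calls made on mean log2(TPM + 1), the number of the 39 genes became 13 in pLSOs and 4 in Sustained neurons, against 7 and 1, and over all genes 541 in pLSOs, 401 in LOCs and 224 in Onset neurons, against 996, 1246 and 486. With a pseudocount of 10, it became 1 in LOCs and 2 in Onset neurons, against 2 and 4, while all genes gave 183 in pLSOs, 139 in LOCs, 100 in Onset and 305 in Sustained neurons (784 by ratio). Without the requirement on the number of neurons it became 5 in LOCs, 10 in Onset and 2 in Sustained neurons, and with at least 2000 detected genes 2 in Sustained neurons. Over all 38887 genes, dropping the requirement gave 6417, 3905, 6254 and 3744 calls in pLSOs, LOCs, Onset and Sustained neurons. Without the highest neuron of each class, all genes gave 1669 calls in pLSOs and 974 in Onset neurons. The cause of these moves was not tested beyond the settings themselves, which admit genes of few neurons or weigh low values differently. The other 32 of 40 values of counts and medians stayed within 1.5 times the main count or within 1 SD. Of 80 ratios of named genes, 77 stayed within 1.5 times, and 3 moved without the highest neuron of each class, to 9.47 (Pfkm), 5.36 (Sucla2) and 1.26 (Dlat). Slc2a3 alone turned direction as a call, from Onset neurons by ratio to Sustained neurons by mean log2(TPM + 1). With all 96 libraries as labelled, Ogdh was no longer past 2-fold in pLSOs, nor Slc2a3 in Onset neurons. Rescaling to own length moved the median log2 ratio of all genes with a mean above 0 in both classes from 0.06 to 0.28 toward pLSOs and the share of 2-fold calls that were higher in pLSOs from 44.4% to 57.3%. Relative to that median, 23 of the 34 genes with a ratio were higher in pLSOs. Shares at 200000 reads were an alternative chosen after seeing the data. Genes for which 1 read is worth over 10 TPM, such as Dlat, Slc2a3 and Idh3g, are limited by depth most.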
